A study of Homo sapiens with 5 samples.

Results

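Of the 20036 H3K27ac peaks that the deposited table places on chromosomes 1 to 22 and X, 1719 (8.58%) spanned more than 1000 bp, and the other 18317 spanned exactly 1000 bp. Width alone chose the 1719 wide peaks, whose signal and position were then set beside those of the 1000 bp peaks. The cells were a derivative of HCT116, a human colorectal carcinoma line, that carries the auxin receptor osTIR1 under a CMV promoter and RAD21 fused to a degron (mAC), so all groups share both changes and the line stands for no other cell. A 6 h exposure to 0.1% DMSO came first in all groups, and 2 libraries were then made after 1 h of IFN-β at 1000 unit/ml and 2 from control cells without it, each by ChIP-seq on 500000 cells fixed in 1% formaldehyde, with 1 input library beside them. The IFN-β libraries are labeled 60 min and the control libraries 0 min, so IFN-β and an added hour of culture cannot be told apart. The table gives each peak the log2 of its mean normalized reads over the 2 libraries of each group, and over all 4 libraries (the mean log2 signal). It gives no value per library, so no spread between replicates and no test over libraries could be computed, and all shares and medians below describe peaks, which are not replicates. The labels do not say whether the libraries of a group came from separate cultures. The normalized reads of all peaks added up to 540427 in a mean IFN-β library and to 876825 in a mean control library. The median difference between IFN-β and control over all peaks was -0.69 on the log2 scale, and each difference below should be read beside that shift.

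Acetylation of histone H3 at lysine 27 sits on the nucleosomes that flank active promoters and enhancers, while the stretch bound by transcription factors and the polymerase machinery is largely free of nucleosomes. A promoter or enhancer can therefore carry acetylated nucleosomes on both sides of a factor-bound center. Some promoters start genes in both directions from a shared stretch of DNA. CCAAT boxes, bound by the factor NF-Y, lie before the start site of many promoters, and AP-1, a pair of FOS and JUN family proteins, binds the site TGAGTCA at many enhancers.

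The sequences at the centers of 8 wide peaks are shown because several of the searched motifs were more frequent near the center in wide than in 1000 bp peaks. They were chosen after the values were seen, from the peaks with the highest signal that hold the motif, and are stretches within 150 bp of the center that overlap no annotated exon, with at least 1 match within 100 bp of it. All are from the plus strand of GRCh38 and are named by the nearest protein-coding gene. Capitals mark the motif on either strand, so a CCAAT box on the minus strand reads ATTGG. The first 2 lie where G3BP1 and ATOX1, and MSH5 and CLIC1, start in opposite directions, and the next 2 lie at P4HB and TUBA1C, which start alone.
G3BP1 and ATOX1 (chr5:151771566-151771765): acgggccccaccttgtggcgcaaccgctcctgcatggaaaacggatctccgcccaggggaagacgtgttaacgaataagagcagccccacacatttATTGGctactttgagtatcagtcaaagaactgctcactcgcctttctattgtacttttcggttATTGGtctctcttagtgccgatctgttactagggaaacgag
MSH5 and CLIC1 (chr6:31739774-31739947): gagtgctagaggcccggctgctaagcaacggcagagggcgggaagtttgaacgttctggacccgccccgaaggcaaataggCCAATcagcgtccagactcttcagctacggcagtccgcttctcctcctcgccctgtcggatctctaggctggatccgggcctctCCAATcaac
P4HB (chr17:81860857-81860978): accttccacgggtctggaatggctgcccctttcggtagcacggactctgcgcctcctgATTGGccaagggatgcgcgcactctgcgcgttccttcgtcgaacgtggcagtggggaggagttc
TUBA1C (chr12:49264834-49265033): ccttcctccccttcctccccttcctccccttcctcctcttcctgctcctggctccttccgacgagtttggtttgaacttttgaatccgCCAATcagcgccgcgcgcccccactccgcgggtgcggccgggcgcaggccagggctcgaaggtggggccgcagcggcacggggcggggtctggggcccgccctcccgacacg
The next 2 promoters hold in capitals matches to NRF1 (GCGCATGC), a regulator of genes for mitochondria and growth, and to CRE (TGACGTCA), the site of CREB and ATF proteins. In RPL10A the capitals cover 2 overlapping NRF1 matches on opposite strands.
RPL10A (chr6:35468258-35468400): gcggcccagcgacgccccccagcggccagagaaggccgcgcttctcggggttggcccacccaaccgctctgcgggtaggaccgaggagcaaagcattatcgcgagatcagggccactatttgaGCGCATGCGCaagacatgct
NOLC1 (chr10:102152031-102152175): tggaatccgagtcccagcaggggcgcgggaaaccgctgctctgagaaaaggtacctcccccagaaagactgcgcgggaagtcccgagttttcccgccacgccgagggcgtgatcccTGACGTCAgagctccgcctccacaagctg
The last 2 lie far from any protein-coding start, in introns of MACF1 and TIAM1, and hold TGAGTCA, or TGACTCA on the other strand.
MACF1 (chr1:39398648-39398847): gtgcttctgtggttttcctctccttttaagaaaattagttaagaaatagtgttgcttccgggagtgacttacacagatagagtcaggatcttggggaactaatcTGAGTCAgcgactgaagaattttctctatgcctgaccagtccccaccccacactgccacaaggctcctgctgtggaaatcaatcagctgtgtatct
TIAM1 (chr21:31366959-31367158): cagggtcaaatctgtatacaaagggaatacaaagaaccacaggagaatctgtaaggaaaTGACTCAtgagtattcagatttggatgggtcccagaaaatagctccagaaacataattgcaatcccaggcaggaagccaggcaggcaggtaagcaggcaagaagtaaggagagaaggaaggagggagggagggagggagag

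The wide peaks had a median width of 1733 bp, with quartiles of 1637 and 1849 bp. The narrowest spanned 1177 bp, and no peak had a width between 1000 and 1177 bp. The members nearest to the threshold lie by NBPF20 (1177 bp, log2 signal 1.47 in control and 0.43 with IFN-β), ZNG1A (1252 bp) and POMZP3 (1302 bp), while the peaks just outside it all have 1000 bp. Of the 1719 wide peaks, 1673 (97.3%) spanned at most 2000 bp. The widths stopped sharply there, with 108 peaks in the last 50 bp up to this width and 0 in the next 50 bp. The remaining 46 peaks reached up to 3795 bp. DiffBind can join overlapping peaks of several libraries into 1 peak, and 2 overlapping windows of 1000 bp cover at most 2000 bp, but the table does not record what each peak was made from, and the part of such joining in the widths was not tested.

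**Figure D1:**
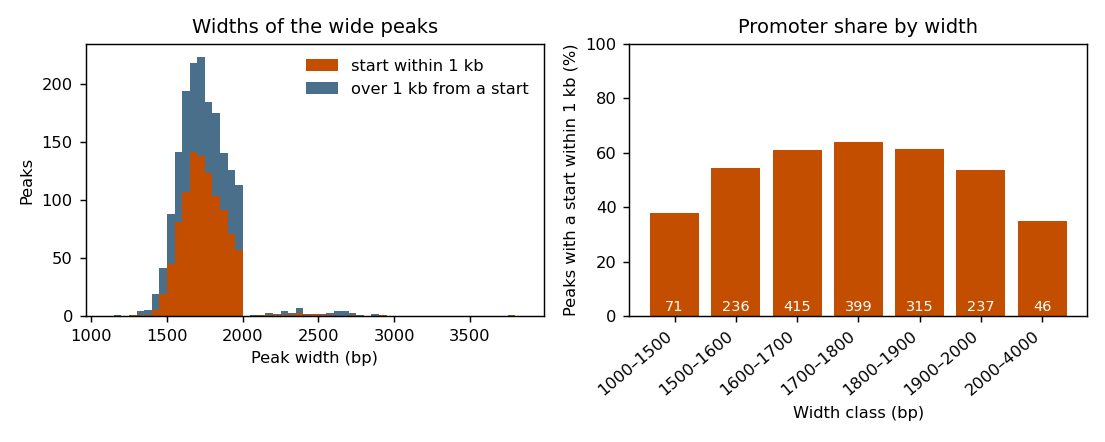
Left, number of wide peaks by width in bins of 50 bp, split by whether a protein-coding start lies within 1 kb of the center. Right, share of peaks with such a start in each width class, with the number of peaks in each bar. The bars rise to 63.9% at 1700 to 1800 bp and fall to 34.8% above 2000 bp.

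The share of wide peaks at promoters varied with width. A protein-coding start lay within 1 kb of the center in 38.0% of the 71 peaks up to 1500 bp, in 63.9% of the 399 peaks above 1700 and up to 1800 bp, and in 34.8% of the 46 peaks above 2000 bp. The median of the mean log2 signal went from 4.03 in the narrowest class to 5.33 between 1900 and 2000 bp, and was 5.18 above 2000 bp. Among the 10 widest peaks, 3 had a start within 1 kb. The widest lies at CKS2, which encodes a small binding partner of cyclin-dependent kinases, and has a log2 signal of 7.84 in control and 7.09 with IFN-β. Next comes a peak of 2912 bp at TSC22D3, a glucocorticoid-induced gene on chromosome X, with 5.13 in control and 4.82 with IFN-β. Introns of ANO6 (2896 bp), IQGAP1 (2880 bp), MET (2747 bp), ANXA2 (2734 bp) and PPP3CA (2698 bp) held wide peaks whose centers lay between 5664 and 177775 bp from the nearest start. IQGAP1 encodes an actin-linked scaffold, MET the receptor of hepatocyte growth factor, ANXA2 a calcium-dependent membrane protein and PPP3CA a catalytic subunit of calcineurin. The peak in MET had 5.61 in control and 4.94 with IFN-β, and the peak in ANXA2 5.71 and 5.10. Of the 10, ETV1, which encodes an ETS family transcription factor, had the center closest to its start, at 11 bp, in a peak of 2717 bp. All 10 of the widest peaks were lower with IFN-β than in control, as most peaks were, since only 5.92% of all peaks had a difference above 0. Their differences ran from -0.18 at the peak nearest to ZBTB8B to -0.75 at CKS2.

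Because the signal sums reads over the whole window, a wide peak needs less signal per base to reach the same value. Taken per 1000 bp, the median log2 signal was 4.09 in wide peaks and 4.73 in 1000 bp peaks. For the comparisons below, the 1000 bp peaks were weighted so that they spread over bins of 0.5 of the mean log2 signal as the wide peaks do, and values of this weighted set are called matched. At matched signal, a start lay within 1 kb of the center in 58.2% of wide peaks (1000 of 1719, exact binomial 95% confidence interval 55.8% to 60.5%) and in 59.5% of 1000 bp peaks. The share depended on the signal. Between 4.0 and 4.5 it was 33.1% in wide and 45.6% in 1000 bp peaks, and between 5.5 and 6.0 it was 86.9% and 76.3%. In the bin of 0.5 that starts at 7.0 it was 88.9% of 18 wide peaks and 62.7% of 201 peaks of 1000 bp. Of all peaks with a signal between 4.0 and 4.5, 14.0% were wide, and of those between 3.0 and 3.5 it was 0.894%. By chromosome, the share of peaks that were wide ran from 6.12% on chromosome 10 to 13.7% (75 of 547) on chromosome X.

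That closeness of the shares holds for matching on the summed signal. With signal matched per kb they were 58.7% and 45.9%, without matching 58.2% and 53.8%, and at a signal of at least 5 they were 78.9% and 72.2%.

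The centers sat differently around the start. The center was within 100 bp of a start in 32.8% of wide peaks (95% interval 30.6% to 35.1%) and in 17.6% of matched 1000 bp peaks. Among the 1000 wide promoter peaks, those with a start within 1 kb, the median center lay 69 bp upstream of the start, with quartiles of 133 and 8 bp upstream. In matched 1000 bp promoter peaks it lay 98 bp downstream, with quartiles of 57 bp upstream and 215 bp downstream. The center was downstream of the start in 21.8% of wide and in 66.8% of matched 1000 bp promoter peaks. Between 100 and 500 bp downstream the shares were 3.80% and 46.5%. The center of a wide promoter peak was inside a protein-coding gene in 53.6% of cases, against 86.2% of matched peaks, and in an exon in 23.7% against 44.4%.

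**Figure D2:**
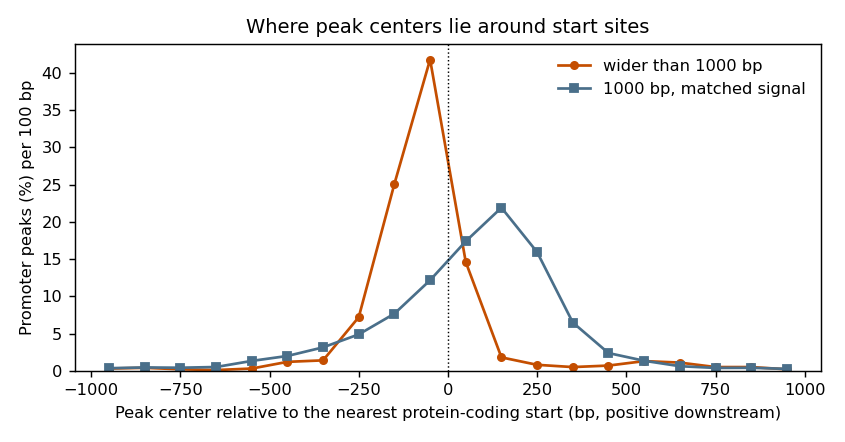
Position of the peak center relative to the nearest protein-coding start, in bins of 100 bp, as a percentage of promoter peaks. Wide peaks (circles, n = 1000) crowd into the 100 bp before the start, which hold 41.8% of them, while matched 1000 bp peaks (squares, n = 9846) are most frequent 100 to 200 bp after it, at 21.9%.

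Wide peaks more often held starts of several genes. At least 2 protein-coding genes started in 195 wide peaks (11.3%, 95% interval 9.88% to 12.9%) and in 6.69% of matched 1000 bp peaks. Counted only in the central 1000 bp, so that both kinds of peak offer the same length, the share in wide peaks was 10.5% (95% interval 9.12% to 12.1%). In 173 wide peaks (10.1%) genes started on both strands, and in 160 (9.31%) they did so within the central 1000 bp, against 5.67% of matched peaks. The 173 wide peaks with starts on both strands had a CCAAT box in the central 200 bp in 53.8% of cases. The share was 42.8% in the 799 wide peaks in which a single gene started. Whether starts on both strands point away from each other was not tested. Among the 173, the highest signal was in the peak that holds starts of C11orf68 and DRAP1. Next came the peak of G3BP1, which encodes a stress granule protein, and ATOX1, a copper chaperone. It was followed by the peak of TUBB, a beta tubulin, and MDC1, a DNA damage mediator. The center of the G3BP1 peak lies inside both G3BP1 and ATOX1, and that of the TUBB peak inside MDC1. In this order, the log2 signals in control and with IFN-β were 7.41 and 6.86, 7.38 and 6.46, and 7.21 and 6.65. The wide peak of MSH5, a meiotic mismatch repair family gene, and CLIC1 had 7.24 and 6.42. A start of a lncRNA lay in 15.5% of wide and 12.8% of matched peaks, a share that the added length could raise.

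Short motifs were searched on both strands in windows of equal length. In the central 200 bp of promoter peaks, CCAAT was present in 44.5% of wide peaks (445 of 1000, 95% interval 41.4% to 47.6%), in 11.1% of matched and in 11.2% of all 1000 bp promoter peaks. The sequences of G3BP1, MSH5, P4HB and TUBA1C above are examples, the first pair with 2 matches each. The GC box GGGCGG, a site of SP family factors, was present in 69.3% of wide and 53.9% of matched promoter peaks. NRF1 was present in 5.50% (55 of 1000) and 1.34%, and CRE in 2.80% (28 of 1000) and 0.606%. The ETS site CCGGAAG was present in 13.5% and 8.0%, and the E-box CACGTG in 7.30% and 3.99%. TATAAA was present in 2.00% and 1.78%. Over all 1000 bp promoter peaks without matching, the shares were 53.4% for the GC box, 1.30% for NRF1, 0.599% for CRE, 7.58% for ETS, 3.95% for the E-box and 1.96% for TATAAA.

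Around the centers of wide promoter peaks CCAAT, NRF1 and CRE formed a narrow crest. Within 100 bp of the center there were 19.5 CCAAT matches per 100 peaks and 50 bp, against 4.14 at 300 to 500 bp, a ratio of 4.71. In matched 1000 bp peaks CCAAT was instead sparser at the center, at 3.29 against 6.14, a ratio of 0.536. The ratio of center to flank for NRF1 was 11.8 in wide and 0.851 in matched peaks, and for CRE 11.2 and 0.783, with few matches behind both. For TATAAA it was below 1 in both, at 0.348 and 0.373. GC content had a median of 62.4% in the central 1000 bp of wide and 64.8% of matched promoter peaks.

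**Figure D3:**
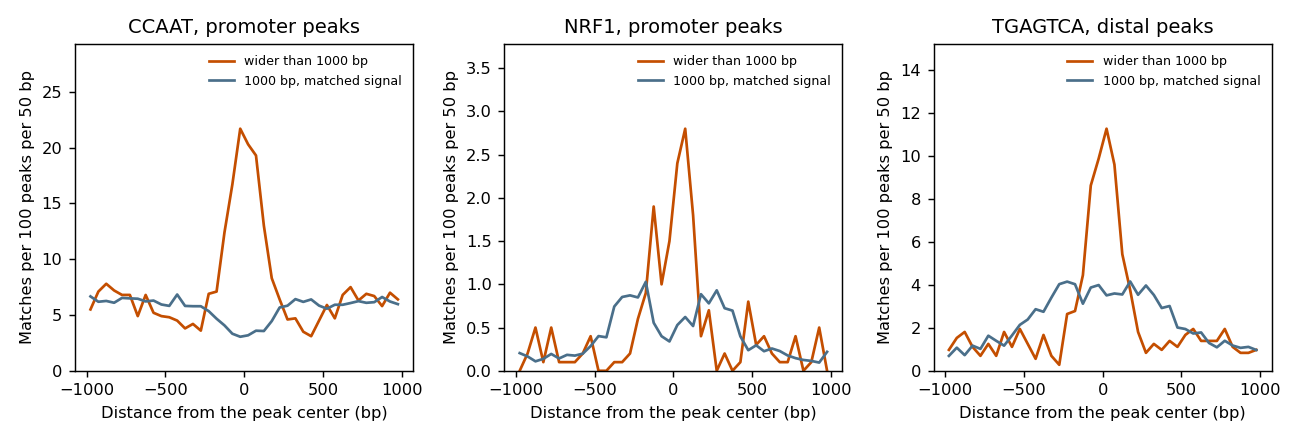
Matches per 100 peaks in bins of 50 bp, by distance from the peak center, for CCAAT and NRF1 in promoter peaks and TGAGTCA in peaks over 1 kb from a start. The wide peaks have a narrow crest at the center, which reaches 21.7 for CCAAT, 2.80 for NRF1 and 11.3 for TGAGTCA, and the matched 1000 bp peaks do not.

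Since the centers sat differently around the start, an alternative window was added after the values were seen. The start nearest to the peak center was taken, a choice that still depends on the center. The promoters were then compared in the 200 bp before that start. There, NRF1 was present in 6.00% of wide and 4.64% of matched promoter peaks, with a 95% interval of 4.61% to 7.66% for the wide peaks, CRE in 2.90% and 2.59%, and ETS in 14.8% and 16.0%. CCAAT differed by more, with 49.2% of wide peaks (95% interval 46.1% to 52.3%) and 24.9% of matched peaks. The GC box was at 74.0% and 69.7%, the E-box at 8.10% and 7.47%, and TATAAA at 2.50% and 2.65%.

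The 719 wide peaks with no protein-coding start within 1 kb, called distal, included 385 centered inside a protein-coding gene and 334 outside. Their median distance to a start was 23240 bp, against 23125 bp in matched distal peaks. The site TGANTCA was present in the central 200 bp of 37.6% of wide distal peaks (270 of 719, 95% interval 34.0% to 41.2%), 16.2% of matched and 14.3% of all 1000 bp distal peaks. For the stricter TGAGTCA, one of the sequences within TGANTCA, the shares were 32.7%, 12.9% and 11.0%. Over the central 1000 bp the shares lay close together, with TGANTCA in 57.7% of wide, 58.2% of matched and 56.8% of all 1000 bp distal peaks. Within 100 bp of the center TGAGTCA was 8.84 times as dense as at 300 to 500 bp in wide peaks and 1.31 times in matched peaks. CCAAT was present in the central 200 bp of 21.6% of wide and 19.6% of matched distal peaks. The distal peak with the highest signal was centered 10785 bp from the start of SLC38A2, an amino acid transporter gene, with 7.66 in control and 7.08 with IFN-β.

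At matched signal, wide peaks had a median log2 signal of 5.19 in control and 4.58 with IFN-β, and 1000 bp peaks 5.23 and 4.56. The median difference was -0.67 in wide peaks, with quartiles of -0.89 and -0.43, and -0.70 in matched peaks, with quartiles of -0.91 and -0.47. The gap of 0.03 between the medians is small beside the spread of the wide peaks (SD 0.39). Promoter peaks had a median of -0.74 in wide and -0.76 in matched peaks, and distal peaks -0.55 and -0.58. In bulk samples, fewer cells with the mark at a peak and less of the mark per cell cannot be told apart.

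Over all peaks on these chromosomes, 5.92% had a difference above 0, and among wide peaks it was 101 of 1719 (5.88%, 95% interval 4.81% to 7.09%), against 3.94% of matched peaks. A difference under -1 was found in 17.4% of all peaks, in 243 wide peaks (14.1%) and in 16.2% of matched peaks. More than 1 above the median of all peaks lay 2.43% of all peaks, 28 wide peaks (1.63%) and 1.34% of matched peaks. More than 1 below it lay 1.36% of all peaks, 14 wide peaks (0.814%) and 0.546% of matched peaks. Of the wide peaks above 0, 88 were distal and 13 were promoter peaks. In distal wide peaks this was 12.2% (95% interval 9.93% to 14.9%), against 7.74% of matched and 9.74% of all 1000 bp distal peaks. In promoter wide peaks it was 1.30%, against 1.58% of matched and 2.64% of all 1000 bp promoter peaks.

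**Figure D4:**
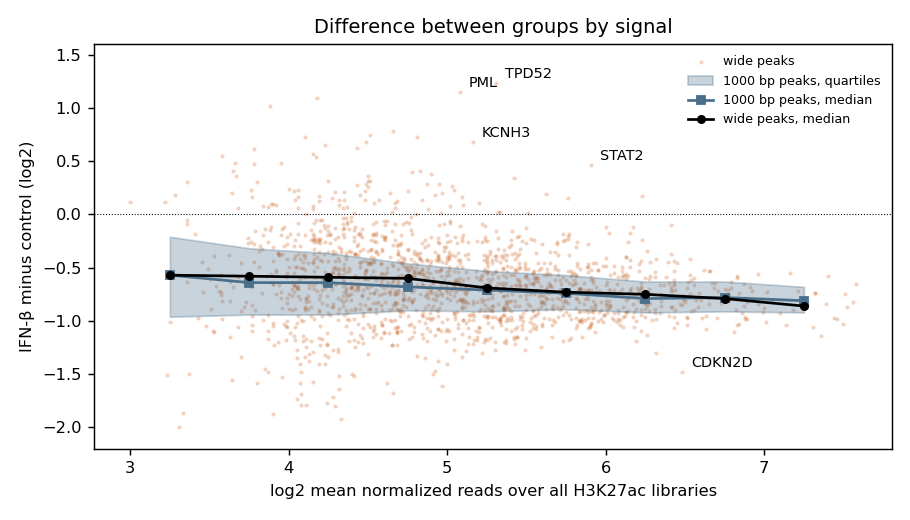
Difference between IFN-β and control against mean log2 signal for wide peaks with a signal of at least 3 (points), with medians of wide peaks (circles) and of 1000 bp peaks (squares, quartiles shaded) in bins of 0.5. Both medians fall together with signal, from -0.57 in both between 3.0 and 3.5 to -0.86 and -0.81 between 7.0 and 7.5, and those nearest to TPD52, PML, KCNH3 and STAT2 are the highest wide peaks with a signal of at least 5.

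Counting error shrinks with signal, so peaks with a mean log2 signal of at least 5 were counted apart, a threshold chosen after the values were seen. Of the 8674 such peaks, 1.36% had a difference above 0, and of the 811 wide ones 17 did (2.10%, 95% interval 1.23% to 3.34%), against 1.36% of matched peaks. More than 1 above the median of all peaks lay 0.484% of the 8674 and 5 of the 811 wide peaks (0.617%). The errors below are counting errors only, approximated by taking the normalized reads of 2 libraries per group as reads, and they leave out the spread between libraries. The highest lies 4315 bp from the start of TPD52, inside the gene, with a log2 signal of 4.57 in control and 5.80 with IFN-β, a difference of 1.23 ± 0.25. Next comes the promoter of PML, which encodes the organizer of PML nuclear bodies and is interferon-stimulated, with 4.39 and 5.54, a difference of 1.15 ± 0.27. A peak inside SPATS2, whose nearest start, 31678 bp away, is that of the potassium channel gene KCNH3, had 4.78 and 5.46, a difference of 0.68 ± 0.25. The promoter of STAT2, a subunit of the interferon-activated factor ISGF3, had 5.66 and 6.12, a difference of 0.46 ± 0.19. The fifth lies inside RBPJ, the gene of the Notch pathway's DNA-binding factor, with 5.24 and 5.58, a difference of 0.34 ± 0.22.

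ISGF3 binds the interferon-sensitive response element (ISRE), searched here by its core, a pair of GAAA repeats spaced by 2 free bases. The core was present in 11.9% of wide peaks in the central 1000 bp, in 11.1% of matched and in 11.6% of all 1000 bp peaks. Over their whole length, 351 wide peaks held it. Of these, 27 (7.69%) had a difference above 0, against 74 (5.41%) of the 1368 without it, and the medians were -0.62 and -0.69. In distal wide peaks the medians were -0.49 and -0.57, with 24 of 185 and 64 of 534 above 0, and in promoter wide peaks -0.70 and -0.74. TGAGTCA, which is no interferon site, split the wide peaks further, with 9.83% of the 600 with it and 3.75% of the 1119 without it above 0. Distal peaks make up 434 of those 600, and within distal wide peaks the shares were 12.7% and 11.6%. TPD52, PML and RBPJ are among the peaks with a match, and in the peak nearest to KCNH3 and that of STAT2 the letters of the core are not found. In the PML peak the core lies at -456 bp from the center, counted along the plus strand, outside any exon, and reads as its reverse complement, in capitals, on the plus strand of GRCh38.
PML (chr15:73994243-73994272): agagctatctTTTCTGTTTCaagtgtcccc

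Of the 76 genes in a list of interferon-stimulated genes, 60 had a peak centered within 5 kb of a start, 68 peaks in all. Of those 68, 2 were wide (2.94%, 95% interval 0.358% to 10.2%), PML and STAT2, beside 8.58% of all peaks. Both were above 0, as were 41 of the 66 peaks of 1000 bp on the list, whose median difference was 0.24. Of 55 peaks at immediate early genes 1 was wide, at IER5, with 6.03 in control and 5.25 with IFN-β, and of 42 at histone genes 0 were wide, which allows a share of up to 8.41% at the 95% level. Of 107 at cytosolic ribosomal protein genes 8 were wide (7.48%). Among them was RPL10A, whose NRF1 matches are shown above, with 6.57 in control and 5.65 with IFN-β.

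In the list of cell cycle and mitosis genes, 6 of 45 peaks were wide (13.3%). A difference above 0 was found in 0 of the 6 and in 0 of the 39 peaks of 1000 bp. The share was 5.92% over all peaks but 1.36% over all peaks with a signal of at least 5. The median of the mean log2 signal was 6.17 in the 6 and 5.99 in the 39. The wide promoter peak of CDKN2D, which encodes an inhibitor of CDK4 and CDK6, had 7.04 in control and 5.56 with IFN-β. TOP2A, the type II topoisomerase of dividing cells, had 6.87 and 5.80, CCNE1, cyclin E1, had 6.33 and 5.31, and MCM5, a subunit of the replicative helicase, had 7.09 and 6.26. For p53 target genes 3 of 31 peaks were wide, at XPC with 6.34 and 5.81, at CCNG1 with 6.09 and 5.23, and at GDF15 with 4.57 and 3.67. For Wnt targets, 3 of 22 were wide. In a peak centered 1172 bp from the start of AXIN2, a feedback inhibitor of the pathway, the values were 5.14 and 3.91, and at ZNRF3, a ubiquitin ligase that removes Wnt receptors, they were 6.24 and 5.06. In a peak centered 2405 bp from the start of CD44, a cell adhesion receptor, they were 4.41 and 4.28.

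Of 57 peaks at epithelial and intestinal genes, 8 were wide (14.0%, 95% interval 6.26% to 25.8%), beside 8.58% of all peaks. The median difference was -0.44 in the 8 and -0.66 in the 49 peaks of 1000 bp. These were not matched, and the median of the mean log2 signal was 4.625 in the 8 and 4.89 in the 49. KRT8, an epithelial keratin, had 6.23 in control and 6.06 with IFN-β, and SOX9, a transcription factor of intestinal crypts, had 5.90 and 4.75. The label of an epithelial carcinoma line was checked on markers. A peak lay within 5 kb of 5 of 6 epithelial marker genes, of 0 of 6 hematopoietic, 0 of 3 hepatocyte and 0 of 3 neuronal marker genes, and of 1 of 5 fibroblast marker genes. That 1 was COL1A1, a collagen gene, and its peak was wide, with 5.24 in control and 4.88 with IFN-β.

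**Figure D5:**
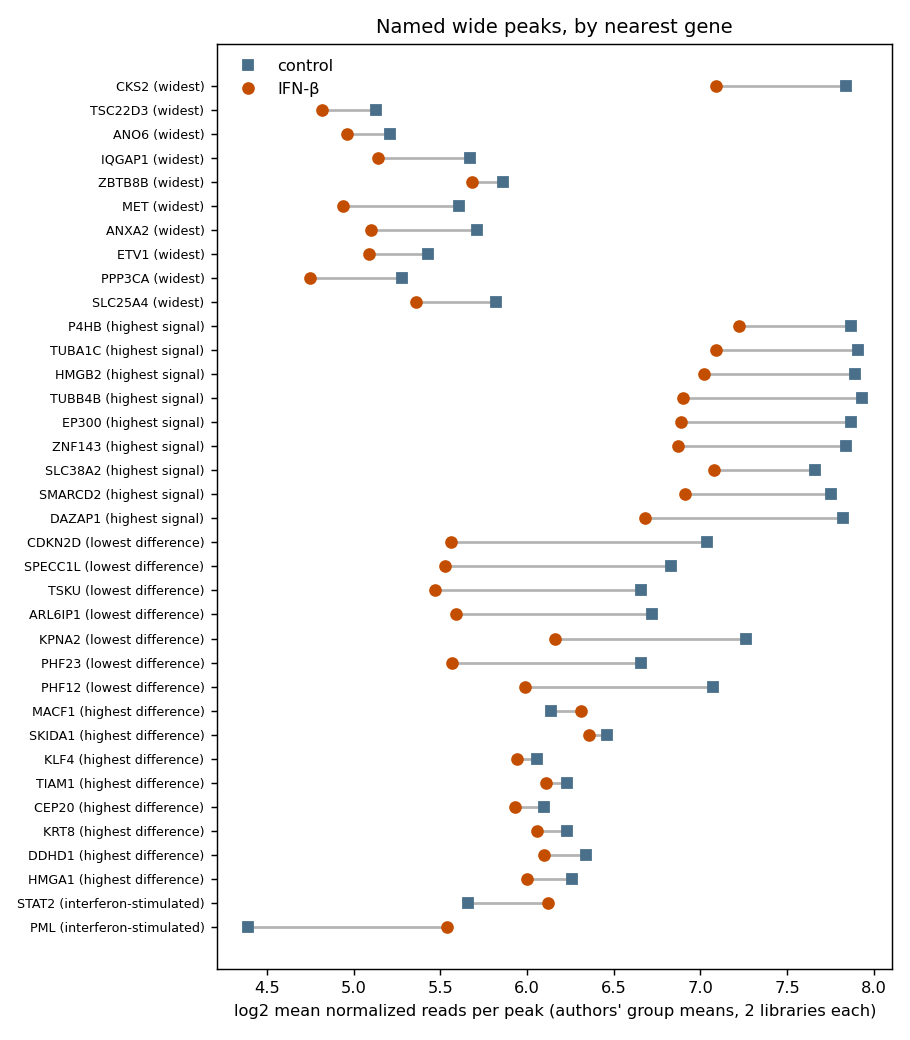
Log2 mean normalized reads in control (squares) and with IFN-β (circles) for wide peaks named by width, signal, difference or the interferon-stimulated list. No error is drawn, since the table holds no value per library. PML, STAT2 and MACF1 lie higher with IFN-β, and the other peaks shown lie lower.

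Of the 10 wide peaks with the highest signal, 9 had a start within 1 kb. P4HB, which encodes protein disulfide isomerase, led with 7.87 in control and 7.22 with IFN-β, before the tubulin gene TUBA1C with 7.91 and 7.09 and the chromatin protein gene HMGB2 with 7.89 and 7.02. TUBB4B, another tubulin gene, had 7.93 and 6.90, and EP300, which encodes an acetyltransferase that writes H3K27ac, had 7.87 and 6.89. ZNF143, a promoter-binding factor, had 7.84 and 6.87, and SMARCD2, a SWI/SNF subunit, had 7.75 and 6.91.

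Among the 236 wide peaks with a signal of at least 6, of which 201 were promoter peaks, 1 had a difference above 0, beside 0.438% of all 2969 peaks at such a signal. That peak lies in MACF1, which encodes a linker of actin and microtubules, with 6.14 in control and 6.31 with IFN-β, a difference of 0.17 against a counting error of 0.17. Its sequence, with a TGAGTCA site, is shown above. Of the 8 highest differences in this set 1 was at a promoter, KRT8, and of the 8 lowest 8 were. The lowest were at CDKN2D with -1.48 ± 0.17, at SPECC1L, a cytoskeletal protein gene, with -1.30 ± 0.18, and at TSKU with -1.19 ± 0.18. They were followed by DAZAP1, an RNA-binding protein gene, with -1.14 ± 0.12, and ARL6IP1, an endoplasmic reticulum protein gene, with -1.13 ± 0.18. KPNA2, an importin gene, had -1.10 ± 0.15. At the other end, the peak in TIAM1, whose product activates RAC1, had 6.23 in control and 6.11 with IFN-β, and a peak 264357 bp from KLF4, its nearest start, had 6.06 and 5.94.

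At the low end, 29 wide peaks (1.69%) and 399 peaks of 1000 bp (2.18%) held the lowest value of the table in both groups, -0.17 in control and -0.59 with IFN-β. Their difference of -0.42 is that of the floors and measures no change. By nearest start, the wide ones include HSPA1A, POLR2J2, POLR2J3 and MAGEA2B, each within 1 kb, which belong to families with near-identical copies in the genome. Others lie far from their nearest start, such as 127893 bp for FOXD4L4, 165754 bp for BCL2L11 and 231277 bp for PLS3. A part of repeated sequence in the floor values was not tested.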

How the data were processed

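H3K27ac was measured by ChIP-seq in 2 IFN-β and 2 control libraries, with 1 input library. The authors trimmed reads with fastp 0.19.3, aligned them to GRCh38 with Bowtie2 (given as 2.25 in the submitters' processing notes, which also name bcl2fastq 2.17), called peaks against the input with MACS2, and counted reads with DiffBind and DESeq2, whose versions are not given in the sources used here. The deposited values are log2 mean normalized reads per peak, as group means made by the authors. A further 3 columns hold the authors' own log2 fold change, p-value and FDR, and were not used. The base from which the table counts positions is not stated, which can move a window by 1 bp.

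Distances ran from the peak center to the 5' ends of protein-coding transcripts in GENCODE release 44. The 1000 bp peaks were weighted to the wide peaks in bins of 0.5 of mean log2 signal. Motifs were searched on both strands of the reference. Intervals of shares are exact binomial at 95% and describe peaks only. The weighting was tested on simulated data. Tools were Python 3.11.15, numpy 2.4.6, pandas 2.3.3, scipy 1.17.1, pysam 0.24.0, samtools 1.23.1 and matplotlib 3.10.9. The wide peaks and the 8 gene lists were chosen with earlier results of these data known. Named are the 10 widest peaks, the 10 with the highest signal, the 8 highest and 8 lowest differences at a signal of at least 6, and up to 4 peaks per gene list, each from among which the text gives some; 1 named peak is not reported here. The 5 peaks above the median by more than 1 and the named peaks with starts on both strands were chosen after their values were seen. So were SLC38A2, as the highest distal peak, and the printed sequences. Alternatives changed the matching, the members, the windows, the start sites and the call thresholds. Wide peaks off these chromosomes (4) were left out.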

Additional observations from a re-analysis of the deposited data

How the results depend on the processing

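No paired analysis was possible because the table holds group means and no value per library, and for the same reason leaving out each replicate was not run. The gap in the median difference between wide and matched peaks (0.03) turned to -0.01 when peaks were matched on reads per kb, and was between 0.01 and 0.04 under the other alternatives, of which a lower width limit (the same members) and centring (the same shift in both) could not move it. The gap in the share within 1 kb of a start (-1.35 points) was 12.9 points with that matching, 4.42 without matching and 6.70 at a signal of at least 5. Signal per kb, lower by 0.64 in wide peaks (-0.64), was at -0.71 in promoters. The gap was smaller in distal peaks, with medians of 3.66 in wide and 4.01 in 1000 bp peaks without matching. For CCAAT the gap of 11.1 points in the central 1000 bp was 27.2 in the whole peak, 16.4 in promoters, 20.3 in the central 200 bp and 24.3 in the 200 bp before the start. The offset between the median centers (-167 bp) was -250.0 bp with 1 start per gene and -179.5 bp with 1 gene starting inside. The count of 28 wide peaks more than 1 above the median was 176 at a threshold of 0.5 (10.2%, beside 10.7% of all peaks) and 5 at a signal of at least 5. The last 2 windows, the offset settings, TGAGTCA and this signal limit were added after seeing the data. The number of libraries and the missing values per library limit all differences between IFN-β and control.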
